A study of Mus musculus with 2 samples.

Results

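The genes described here are 10 transcription factor genes grouped by name as candidate regulators in the ureteric mesenchyme: the teashirt genes *Tshz1*, *Tshz2* and *Tshz3*, the muscle segment homeobox genes *Msx1* and *Msx2*, the odd-skipped genes *Osr1* and *Osr2*, and *Trps1*, *Dach1* and *Gata6*. They were chosen by name, as the 10 of 29875 genes on the array whose gene symbol was one of these, with earlier results of these data known. The grouping is a name and could not be checked in whole explants. At a later stage, the in situ hybridizations of the study place *Trps1*, *Dach1* and *Gata6* in the ureteric mesenchyme and *Msx2* in the ureteric epithelium. Ureters were dissected from E12.5 wildtype NMRI mouse embryos of undetermined sex and kept on membranes for 18 h in medium with 10 µM BIO, while control ureters received the solvent DMSO at 2:1000. BIO (6-bromoindirubin-3-oxime) inhibits the kinase GSK3B, which otherwise marks beta-catenin for degradation, so that it switches on the canonical WNT pathway. RNA from pooled ureters was compared on 2 two-colour Agilent arrays with the dyes swapped between them. On replicate 1 the BIO sample was red and on replicate 2 it was green, so each array gave 1 ratio of BIO over control. Every cell of the explant was exposed to the inhibitor, and a whole explant holds mesenchyme, epithelium and other cells.

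The young ureter is an epithelial tube wrapped in mesenchyme. Its inner mesenchymal cells become smooth muscle and its outer cells become a fibrous coat, under control of WNT, SHH and BMP signals exchanged between the layers. Transcription factors read these signals: TSHZ3 is required for smooth muscle differentiation in the ureter, OSR1 acts in the intermediate mesoderm from which the urogenital system arises, MSX1 and MSX2 are homeodomain repressors that respond to BMP signals in many tissues, and GATA6 is a zinc finger factor of smooth muscle and other mesodermal and endodermal lineages.

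All 10 genes had a probe, 14 probes in all, with 7 genes read by a single probe and *Tshz2*, *Trps1* and *Dach1* by more than 1. The probes are oligos of 60 bases, each spotted 4 times. What a ratio describes is only the stretch of transcript that the oligo matches, so the first 30 bases of the probes on which the results turn are given here, with positions on mouse build mm9 as in the array files. The *Msx1* probe lies at chr5:38212305-38212364 and the *Osr1* probe at chr12:9587390-9587449. Those of *Msx2* and *Tshz3* lie at chr13:53562318-53562377 and chr7:37557872-37557931. The brighter *Tshz2* probe, at chr2:169713711-169713770, starts 1778 bases from the dimmer one at chr2:169711933-169711992. *Trps1* is read at chr15:50486813-50486872 by its brightest probe and at distances of 3221 and 5428 bases from there by the other 2. The *Osr2* probe matches 60 bases of transcript that span 1016 bases of chromosome 15, from 35230691 to 35231706, and so reads across a splice junction. The array files do not say whether the other probes lie in coding or untranslated sequence.
Msx1: acacttcctcctggttgtcgcttcctaaac
Msx2: cctgtccatctcttcccccagtatattttt
Osr1: tcacaagtgaaggagctcaaaacctccaag
Osr2: gatcacctacgggatcacaggtatatccat
Tshz3: agaaattaaaggatgctcaaagtaaactca
Tshz2, brighter probe: catgactgtacatcttaccttattgaatgg
Tshz2, dimmer probe: aagaggacacagactctaaattcaagtgta
Trps1, brightest probe: ttgttttcatagtgcatgttcatttcgact
Trps1, probe at 3221 bases: ttaaccagtctgtgactgttccagcaaatg
Trps1, probe at 5428 bases: atgacttcacaacacatatccagaggggcc

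Between 70.1% and 80.9% of biological spots were well above background per channel, no spot was saturated, and all 14 probes of the 10 genes were well above background in both colours of both arrays. All 6 listed WNT response genes rose with BIO, with a median log2 ratio of 1.73, among them *Sp5* at 2.80, *Axin2* at 2.15 and *Lgr5* at 2.09. Signals below are Agilent processed signals in arbitrary units, and log2 ratios are of BIO over control after normalization within each array. A gene was called as risen or fallen where limma's test of both ratios against 0 gave a Benjamini-Hochberg adjusted p under 0.05 over 28824 probes, and each gene was represented by its brightest probe. The labels give 2 samples of each treatment without saying whether they came from separate litters, so the spread between these 2 arrays may be technical. Limma draws the variance of each probe toward a value shared by all probes, here with 7.14 prior degrees of freedom. The SEs, intervals and p-values given below therefore rest largely on that shared variance and do not measure a gene's own spread alone.

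Of the 10 genes, 5 rose with BIO (*Tshz1*, *Tshz3*, *Msx1*, *Msx2* and *Trps1*), 3 fell (*Tshz2*, *Osr1* and *Gata6*) and 2 were not called (*Osr2* and *Dach1*). Among all 21574 genes tested, 23.9% were called, 9.13% as risen and 14.8% as fallen. For each of the 10 genes both arrays gave a ratio of the same sign. For the called ones this adds nothing to the call, since 0 of all 5154 called genes had opposite signs. Control and BIO signals of the brightest probe also did not overlap for any of the 10 genes, the 2 not called included. How often this holds over all genes was not counted, so it adds nothing to a call. The median log2 ratio of the 10 genes was 0.395, against -0.00828 over all genes tested. The log2 ratios of the called genes ran from -0.94 for *Osr1* to 1.83 for *Msx1*, and the smallest in size was -0.39 for *Gata6*. With the deposited score table in place of the intensities, none of the 10 genes was called as risen and 1 (*Gata6*) as fallen, with every direction as before. These scores are rounded, and a share of 0.413 of probes had equal scores on both arrays. *Gata6* scored -1.3 on both (SE of the log2 ratio 0.00537), while *Msx1*, not called, scored 4.8 and 3.1. The fit to the scores had 0.426 prior degrees of freedom, so a call there depended mostly on how closely the 2 scores matched. The inner and outer layers were not separated, so fewer cells of a type and less RNA per cell cannot be told apart in any of these values, nor can mesenchymal from epithelial transcripts.

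**Figure D1:**
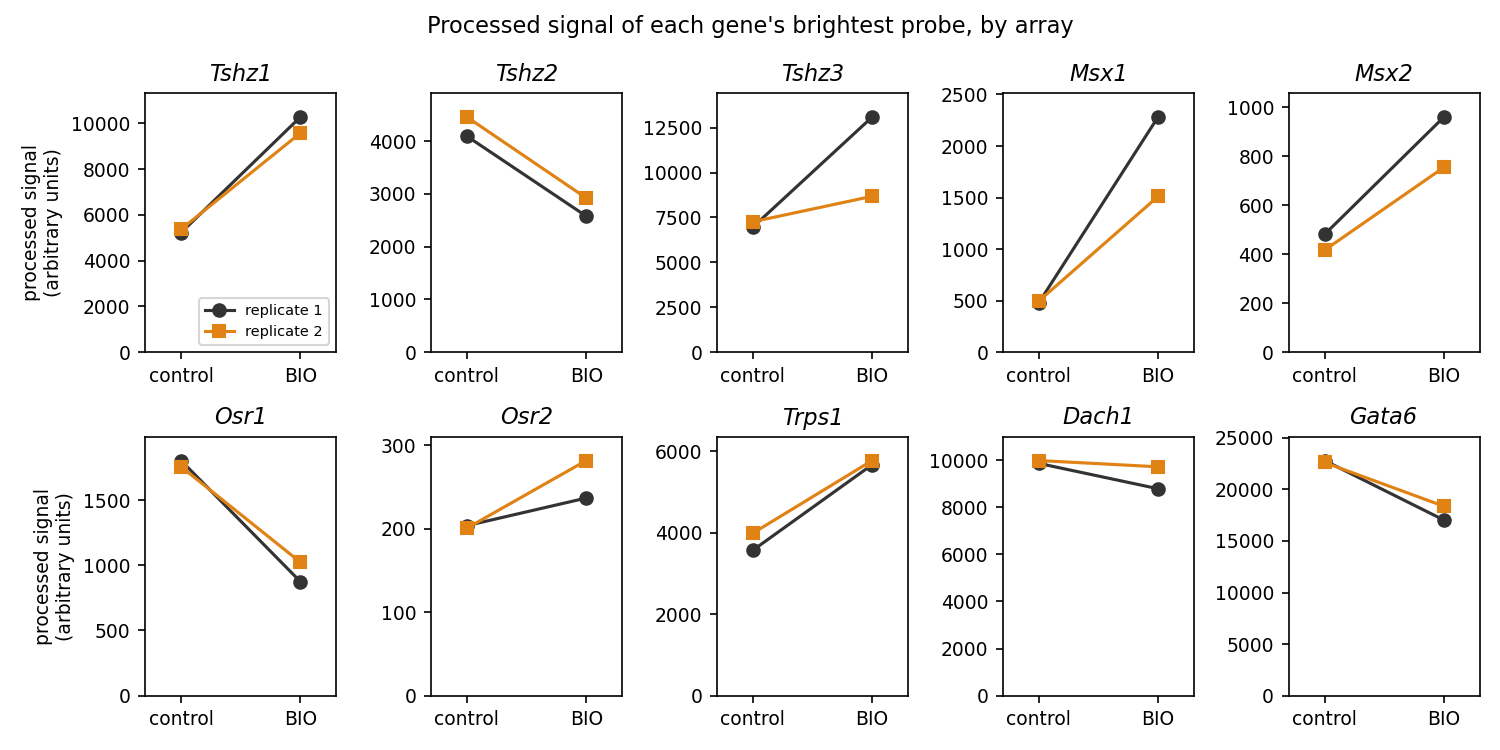
Processed signal (arbitrary units, linear axis from 0) of each gene's brightest probe in control and BIO samples; each line joins the 2 channels of 1 array, replicate 1 as circles and replicate 2 as squares. Lines of *Tshz1*, *Tshz3*, *Msx1*, *Msx2*, *Osr2* and *Trps1* go up on both arrays and those of *Tshz2*, *Osr1*, *Dach1* and *Gata6* go down, with *Msx1* the steepest; each panel has its own scale, and heights are not comparable between genes.

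*Msx1* changed most. Its signal was 476 in the control and 2281 with BIO on replicate 1, and 494 and 1511 on replicate 2. The control signals lay close together on both arrays and both BIO signals were far above them. The log2 ratios were 2.14 and 1.52, with a mean of 1.83 ± 0.15 (SE, n = 2 arrays; 95% interval 1.48 to 2.19), a 3.56-fold rise (limma adjusted p = 0.000168). This mean stood at percentile 99.9 of all genes tested. The 2 arrays differed by 0.62 in this log2 ratio, a gap larger than for 96.4% of tested probes, and both ratios were above 1.

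*Msx2*, the close relative of *Msx1*, also rose. Its signal went from 481 to 961 on replicate 1 and from 417 to 755 on replicate 2. Its log2 ratios of 0.90 and 0.78 gave a mean of 0.84 ± 0.11 (SE, n = 2 arrays; 95% interval 0.59 to 1.09; limma adjusted p = 0.0012), or 1.79-fold. The intervals of *Msx1* and *Msx2* did not overlap, and the log2 ratio of *Msx1* was the higher by 1.24 on replicate 1 and 0.74 on replicate 2. That difference was not tested in itself. *Msx3*, the remaining gene of the family, had a log2 ratio of 0.10 and was not called (limma adjusted p = 0.566).

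The 3 teashirt genes, which encode related zinc finger repressors, moved in opposite directions. *Tshz1* had signals of 5220 in the control and 10274 with BIO on replicate 1, and of 5366 and 9575 on replicate 2. Both BIO signals were far above both control signals, and the arrays gave nearly the same log2 ratio, 0.93 and 0.84. The mean was 0.88 ± 0.11 (SE, n = 2 arrays; 95% interval 0.63 to 1.14; limma adjusted p = 0.000929), a 1.85-fold rise. Its probe lies at chr18:84182013-84182072.

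*Tshz3*, the teashirt gene that ureteric smooth muscle needs, rose by a less even amount. The signal went from 6959 to 13095 on replicate 1 but only from 7262 to 8679 on replicate 2. The control signals were alike on both arrays, and the BIO signals were not, though both exceeded the controls. The log2 ratios were 0.81 and 0.29 and their mean 0.55 ± 0.14 (SE, n = 2 arrays; 95% interval 0.23 to 0.88; limma adjusted p = 0.0251). The gap of 0.52 between the arrays was larger than for 93.8% of tested probes. The call was lost with Agilent's processed signals (limma adjusted p = 0.0685) and without the filter on dim probes (limma adjusted p = 0.0535). The log2 ratio was 0.55 with processed signals, while the filter does not enter the ratio.

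*Tshz2* fell at both of its probes, where 23.2% of all probes tested were called and 14.3% as fallen. The brighter one gave 4096 in the control and 2579 with BIO on replicate 1, and 4459 and 2923 on replicate 2. The dimmer one gave 893 and 454, then 978 and 606. At each probe both BIO signals were below both control signals. The brighter probe had log2 ratios of -0.72 and -0.58 and a mean of -0.65 ± 0.11 (SE, n = 2 arrays; 95% interval -0.90 to -0.39; limma adjusted p = 0.00438), and the dimmer one a mean of -0.87 ± 0.13 (limma adjusted p = 0.00207). The log2 ratio of *Tshz1* was above that of *Tshz2* by 1.65 and 1.41 on the 2 arrays, and that of *Tshz3* by 1.53 and 0.87. The intervals of the 2 risen genes lay wholly above 0 and that of *Tshz2* wholly below.

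**Figure D2:**
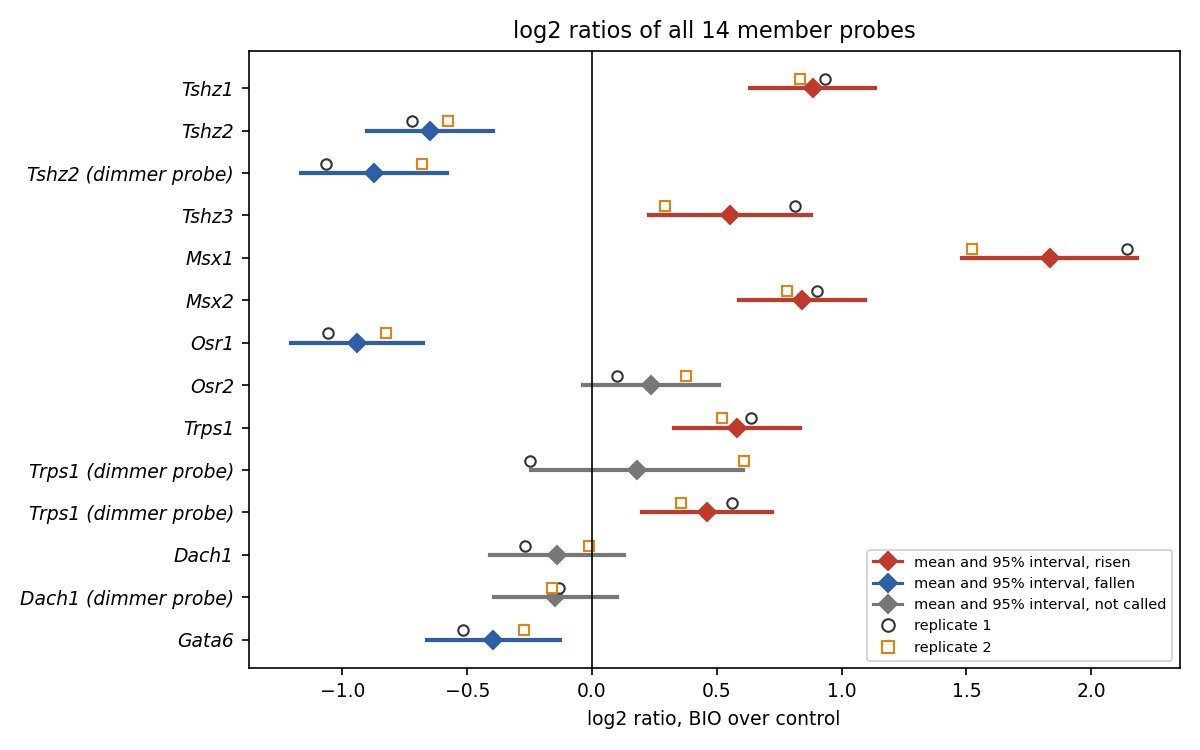
Log2 ratio of BIO over control for each of the 14 probes; open circles and squares are replicates 1 and 2, diamonds the mean, and bars the 95% interval from limma, red for risen, blue for fallen and grey for not called. The interval of *Msx1* (1.48 to 2.19) stands apart from the rest, both *Tshz2* probes lie below 0, and the single probe whose arrays fall clearly on opposite sides of 0 is a dimmer *Trps1* probe (-0.25 and 0.61).

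*Osr1* and *Osr2* encode closely related odd-skipped zinc finger factors, and here *Osr1* fell while *Osr2* was not called. The *Osr1* signal was 1804 in the control and 875 with BIO on replicate 1, and 1757 and 1024 on replicate 2. Control and BIO signals were well apart. The log2 ratios of -1.06 and -0.82 gave a mean of -0.94 ± 0.12 (SE, n = 2 arrays; 95% interval -1.21 to -0.68; limma adjusted p = 0.000898), the lowest of the 10 genes and at percentile 3.08 of all genes tested.

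*Osr2* gave 204 and 237 on replicate 1 and 201 and 282 on replicate 2. Both BIO signals were above both controls by a small margin. The mean log2 ratio was 0.24 ± 0.12 (SE, n = 2 arrays; limma adjusted p = 0.191), and its 95% interval, from -0.03 to 0.51, leaves room for no change or for a moderate rise. The interval did not reach that of *Osr1*, and the log2 ratio of *Osr2* was higher than that of *Osr1* by 1.16 and 1.2 on the 2 arrays.

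*Trps1* encodes an atypical GATA-type zinc finger protein that represses transcription. Its brightest probe went from 3572 to 5676 on replicate 1 and from 3991 to 5778 on replicate 2. The log2 ratios were 0.64 and 0.52, with a mean of 0.58 ± 0.11 (SE, n = 2 arrays; limma adjusted p = 0.00698). The probe 3221 bases away also rose, with a log2 ratio of 0.46 ± 0.11 (limma adjusted p = 0.022), where 8.95% of all probes tested were called as risen. The probe 5428 bases away did not follow: its signal was 3393 in the control and 2894 with BIO on replicate 1, and 3634 and 5565 on replicate 2. Its log2 ratios had opposite signs, -0.25 and 0.61, with a mean of 0.18 ± 0.18 (limma adjusted p = 0.537), and the gap of 0.86 between arrays exceeded that of 98.8% of tested probes. The spread among its spots, up to 0.123 on the log2 scale, was also the highest of the 14 probes. The rise of *Trps1* was thus called at 2 of its 3 probes, and at the brightest probe it missed the threshold where the arrays were only centred on their median (limma adjusted p = 0.0639).

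*Gata6* was the called gene with the smallest change. Its signal fell from 22801 to 17025 on replicate 1 and from 22610 to 18366 on replicate 2. The controls were nearly equal and both BIO signals were lower. The mean log2 ratio was -0.39 ± 0.12 (SE, n = 2 arrays; 95% interval -0.66 to -0.13; limma adjusted p = 0.042), from -0.52 and -0.27, at a probe at chr18:11085039-11085097. The call was lost under 4 of the 7 other ways of processing, with an adjusted p of up to 0.696 in limma and a log2 ratio of -0.22 where the arrays were only centred on their median. Among the other GATA genes, *Gata2* fell with a log2 ratio of -0.69 (limma adjusted p = 0.00463) and the other 4 (*Gata1*, *Gata3*, *Gata4* and *Gata5*) were not called. Signals of *Gata4*, from 9.5 to 16.5, and of *Gata1*, from 28 to 47, were very low, so the lack of a call there says little. With BIO, *Gata4* was well above background on only 1 array.

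*Dach1*, a corepressor of the retinal determination network, was not called at either probe. The brighter one gave 9863 and 8786 on replicate 1 and 9984 and 9717 on replicate 2. BIO signals were slightly lower on both arrays. The mean log2 ratio was -0.14 ± 0.12 (SE, n = 2 arrays; limma adjusted p = 0.438) there and -0.15 ± 0.11 (limma adjusted p = 0.38) at the dimmer probe. Its paralog *Dach2* rose, with a log2 ratio of 0.60 (limma adjusted p = 0.00599). Whether *Dach1* and *Dach2* differed was not tested.

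**Figure D3:**
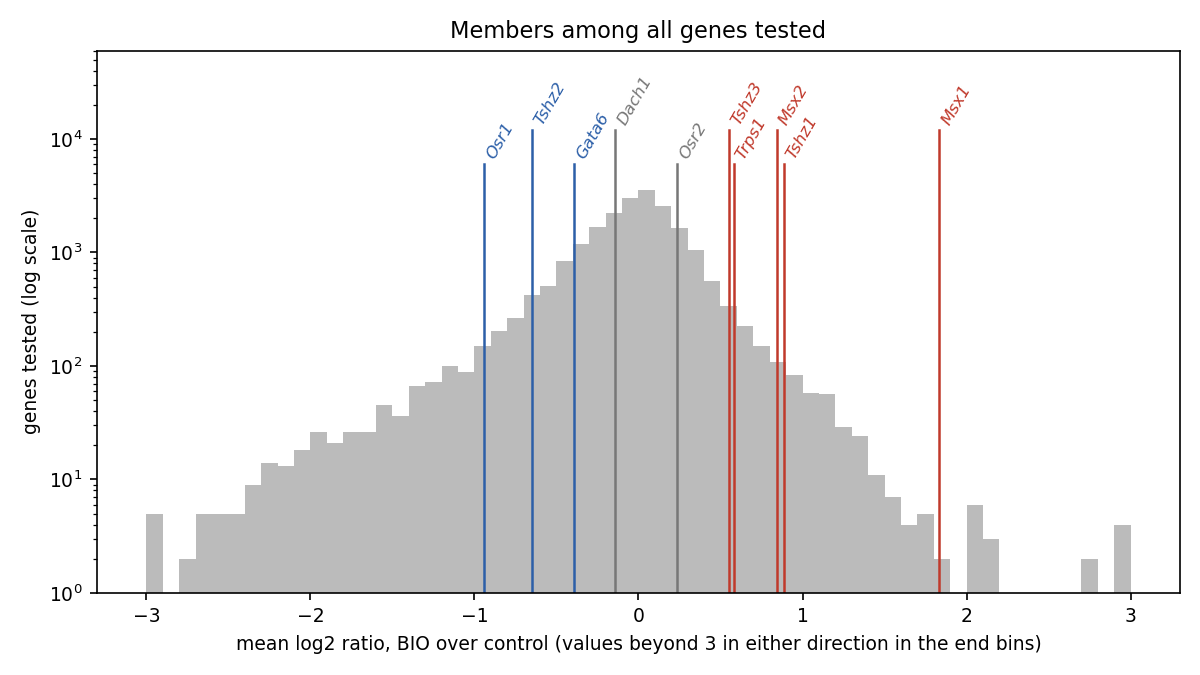
Number of genes tested (log axis) by mean log2 ratio of BIO over control in bins of 0.1, with a vertical line for each of the 10 genes, red for risen, blue for fallen and grey for not called. *Msx1* lies in the far right tail (percentile 99.9), *Tshz1* (98.5), *Msx2* (98.4), *Trps1* (96.1) and *Tshz3* (95.7) on the right shoulder, and *Osr1* (3.08) and *Tshz2* (6.49) on the left.

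A stricter rule asked for a signal of at least 100 and a same-direction change of at least 2-fold on each array, cut-offs taken from the methods for further arrays of the study, and involves no test. Of the 10 genes only *Msx1* met it, as higher with BIO, where 2.18% of 29864 genes met it in either direction and 0.683% as higher. At 1.5-fold, 5 of the 10 met it, where 5.74% of genes did: *Msx1*, *Msx2* and *Tshz1* as higher and *Osr1* and *Tshz2* as lower. On replicate 1 alone *Osr1* also passed at 2-fold. For all 8 called genes the change was larger on replicate 1, where BIO was red, than on replicate 2, and this held for 61.5% of all 5154 called genes.

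The counts of related genes that follow stand beside 9.13% risen and 14.8% fallen among all genes tested. Of 11 BMP ligands and BMP response genes, 2 rose and 1 fell: the ligand genes *Bmp5* and *Bmp2* rose with log2 ratios of 0.59 and 0.37, and *Bmp4*, the mesenchymal ligand of the ureter, fell with -0.51. With 3 of 11 called against 23.9% of all genes tested, this list was near the background. None of the ID genes (*Id1*, *Id2*, *Id3* and *Id4*), common BMP targets, was called. Of 7 SHH pathway and FOXF genes, 1 fell, *Shh* itself with a log2 ratio of -0.43, also near the background, and the median was -0.26. Of 9 smooth muscle regulators and genes, 5 fell and none rose, with a median of -0.50. All 5 were contractile genes, and the regulators *Myocd*, *Srf*, *Sox9* and *Tbx18* were not called. The contractile genes *Acta2*, *Actg2* and *Tagln* had log2 ratios of -1.63, -1.04 and -0.99. *Cnn1* and *Myh11* had -0.50 and -0.53. The *Myh11* signals with BIO were only 12.4 and 16.1, well above background on 1 array.

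Markers of cell types moved as well, and their part in the changes of the 10 genes was not tested. Of 9 mesenchymal markers, 8 fell and none rose, with a median log2 ratio of -0.73, led by *Pdgfrb* at -2.17, *Lum* at -1.31 and *Col3a1* at -0.91. Their summed signal was 334000 and 368000 in the controls and 201000 and 224000 with BIO. *Osr1*, *Tshz2* and *Gata6* moved in the direction of these markers, and the 5 risen genes moved against it. That direction was not particular to mesenchymal markers. The medians of the epithelial, endothelial, kidney and macrophage lists were also negative, at -0.32, -2.13, -0.14 and -0.12. Of 9 epithelial markers, 4 fell (*Krt19*, *Cdh1* and *Krt8* with the largest changes) and none rose, with a median of -0.32. All 7 endothelial markers fell, with a median of -2.13 and a summed signal of 24500 and 29400 in the controls against 4090 and 8010 with BIO. Of 8 kidney mesenchyme and stroma markers, 1 rose (*Wt1*, 0.58) and 2 fell (*Foxd1*, -0.60, and *Crym*, -0.54). Of 5 macrophage markers 2 fell (*Cx3cr1* and *Csf1r*). No marker of these lists was below background in all channels.

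**Figure D4:**
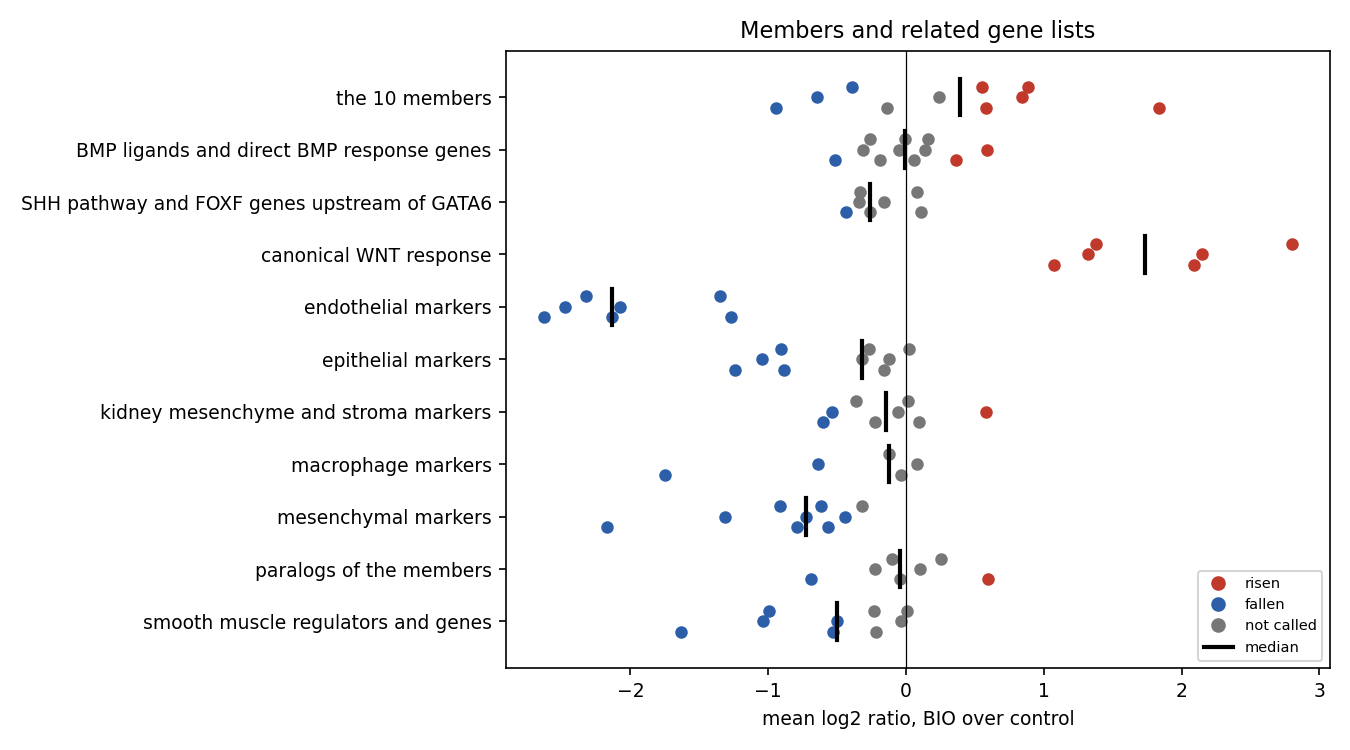
Mean log2 ratio of BIO over control (one point per gene, red for risen, blue for fallen, grey for not called; black bars are medians) for the 10 genes and for the lists of paralogs, pathway genes and cell type markers. The 10 genes spread to both sides of 0, while all 6 WNT response genes lie above it and all 7 endothelial markers below -1.

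Promoter sequence, from RefSeq on GRCm38.p6 and covering 250 bases before to 50 after the transcript start, was at hand for 5 of the genes: *Msx1*, *Msx2*, *Tshz2*, *Tshz3* and *Dach1*. It was searched on both strands for CTTTGA, the core that TCF and LEF proteins, the DNA-binding partners of beta-catenin, recognise. The promoters of *Msx1*, *Msx2*, *Tshz2* and *Tshz3*, genes that were called, held no match. That of *Dach1*, which was not called, held 2. Among all 32851 promoters of the same length, 16% held at least 1 match and 1.73% held 2 or more. A match is a run of letters and not a binding site, and the absence of one says only that these letters are not in this window. The 2 windows of *Dach1*, on the minus strand of chromosome 14, are shown with the match in capitals. The first match begins 108 bases before the transcript start, at chr14:98169856-98169885, and the second lies just after the start, at chr14:98169738-98169767.
Dach1, before the start: gttttcgcggctTCAAAGggtatttcaagt
Dach1, after the start: tcccctctcaatCTTTGAtcaatgtacttg

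The direction of each of the 10 genes was the same under 7 other ways of processing the arrays. Dropping the filter and fitting an intensity trend changed only the test, so no direction could turn there. Averaging over probes changed the ratio only for genes with more than 1 probe. Over the 7 ways, the log2 ratio of *Msx1* ranged from 1.72 to 1.95 and that of *Tshz1* from 0.87 to 0.91. That of *Msx2* ranged from 0.71 to 0.92 and that of *Osr1* from -1.03 to -0.92. *Tshz2* ranged from -0.76 to -0.63 and *Trps1* from 0.41 to 0.59. The values of *Osr2* and *Dach1*, from 0.10 to 0.37 and from -0.14 to -0.07, were not called under any of them.

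**Figure D5:**
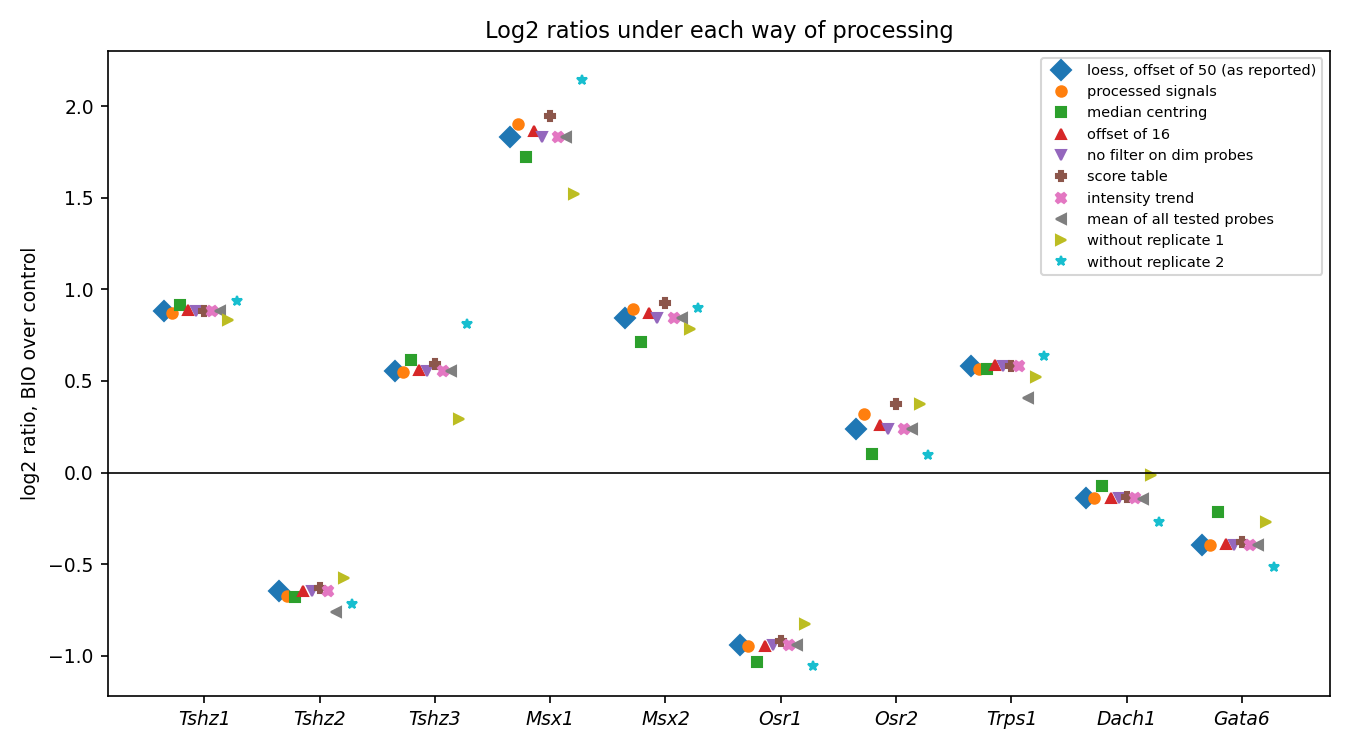
Log2 ratio of BIO over control of each gene under each way of processing (symbols) and on each array alone (right-pointing triangles, replicate 2 alone; stars, replicate 1 alone). No gene changes sign; *Msx1* and *Tshz3* differ most between the single arrays (2.14 and 1.52, and 0.81 and 0.29), and *Gata6* moves closest to 0 under median centring (-0.22) among the called genes.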

How the data were processed

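RNA of BIO-treated and control ureter pools was labelled with AlexaFluor647 and AlexaFluor555 and hybridised to 2 Agilent arrays with the dyes swapped. The authors scanned the arrays and extracted spot values with Agilent Feature Extraction 10.7.3.1, per the labels. The deposited intensity values (mean, background and processed signals) are not normalized between arrays. A deposited score per probe, whose centring is not given in the sources used here, served only as an alternative: its median was 1 on both arrays, and for negative values its size was read as the fold of a fall.

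Mean signals were corrected with normexp (offset 50) and normalized by loess within each array in limma 3.58.1 (R 4.3.3), with control spots and outlier spots at weight 0. The 4 spots of a probe were averaged. Probes well above background in the same sample on both arrays were tested: lmFit and eBayes on 2 ratios against 0, two-sided, Benjamini-Hochberg over 28824 probes at 0.05. No dye term was fitted, since 2 ratios do not allow one. The slide and the scan were shared by both arrays and offered no batch to test. The stricter rule used processed signals with a floor of 15, each array centred on its median. For arrays, precision is limited by their number. The fit was tested on simulated data. Alternatives were processed signals, median centring, an offset of 16, no filter, the score table, an intensity trend and the mean of all probes. The 10 genes and the lists were chosen with earlier results of these data known. All 10 genes are reported, and of each list the 3 called genes of largest change. Paralogs, the ID genes and the remaining smooth muscle genes were also named, by value, count or call, after their values were seen.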

Additional observations from a re-analysis of the deposited data

How the results depend on the processing

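The 10 genes were read under 7 alternatives to the background correction, normalization, filter, values and test, and on each array alone. None of these 90 values reversed, and 14 lost the call, but not all of them could. With no filter or an intensity trend the ratios were the reported ones. Averaging over probes changed nothing for genes with a single probe, and single-array values carry no call to lose. The calls of *Tshz1*, *Tshz2*, *Msx1*, *Msx2* and *Osr1* were lost only with the score table. There 0 genes of the 10 were called as risen and 1 as fallen, *Gata6*, whose rounded score was -1.3 on both arrays. The score table also moved the genes called over the whole array from 5154 to 3248, and the share fallen from 61.8% to 40.6%. Median centring gave 2766 genes, 70.1% of them fallen, and lost *Trps1* (limma adjusted p = 0.0639) and *Gata6*. Under it the prior degrees of freedom were infinite, so all genes shared an SE of 0.216, against a median of 0.111 in the reported fit. A call there depended only on the size of the mean log2 ratio. The log2 ratio of *Trps1* was 0.57 there against 0.58, and that of *Gata6* -0.22 against -0.39. *Gata6* was also lost with processed signals (limma adjusted p = 0.103), an offset of 16 (0.0684) and no filter (0.0544). The cause was not tested. By the rule of signal and fold, 1 of the 10 genes passed, 5 at 1.5-fold, and from 1 to 2 with either array left out, *Osr1* being added without replicate 2. The reported test is itself paired, since each array holds a BIO and a control sample; the labels allow no further pairing or block. A single array gives a ratio but no test.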
